A study of Mus musculus with 12 samples.

Results

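The genes of mitosis and cytokinesis were examined in single mouse ovarian follicles that had been vitrified and in follicles that had stayed fresh. The set was a list of names, drawn up with earlier results of these data known: 36 symbols for mitotic kinases, cyclins A and B, the spindle checkpoint, the kinetochore, condensin and cytokinesis, with kinesins left out. All 36 were among the 11806 genes of the authors' deposited table, and all 36 were among the 10963 genes to which the authors gave an adjusted p. The vitrified group held 6 libraries and the fresh group 6, each from a single follicle of a CD-1 mouse, an outbred stock, aged 16 days. Vitrification is cryopreservation by cooling into a glass-like state. Follicles of both groups were embedded singly in 0.5% alginate and kept for 8 days in medium with recombinant follicle-stimulating hormone at 10 mIU/mL, insulin, transferrin and selenium. RNA was captured on beads from the lysate of each follicle and prepared by a Smart-seq protocol. The titles number the libraries 1 to 6 in each group without naming the animals, so it is unknown which follicles shared an animal. Sharing within a group would make the p-values too small, and the effect of sharing across the groups cannot be told here.

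A growing follicle enlarges mainly because its granulosa cells divide under follicle-stimulating hormone, while the oocyte rests in meiotic prophase and stores messenger RNA. In a dividing cell, cyclin B with the kinase CDK1 drives entry into mitosis, condensin folds the chromosomes, kinetochores attach them to spindle microtubules, and the spindle checkpoint holds back separation until every kinetochore is attached. An actin and anillin ring then divides the cell. Messenger RNAs of most of these genes are made in the second part of the cell cycle, so in a mixed tissue their level can track the share of cells in that phase.

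The values used were those of the authors' comparison: the fold change of vitrified over fresh for each gene, its p-value and a total summed over all libraries. No value per follicle is given in that table, so the spread among follicles of a group cannot be shown here and enters only through the p-value. A 95% interval was derived for each gene from its deposited log2 fold change and p. Over all genes the totals of the authors' deposited table came to 23783958, of which the 36 members held 17283, or 0.0727%. Cell type markers present in the authors' deposited table had summed totals of 2187527 for 13 granulosa genes and 495104 for 11 theca genes. The sums were 2389 for 6 endothelial genes, 1845 for 13 oocyte genes and 291 for the single immune gene Lyz2. Single genes held much of some sums. Inha had 1121843 of the granulosa sum, Hsd3b1 had 435485 of the theca sum and Cdh5 had 1912 of the endothelial sum. The granulosa markers Amh and Bex2 were not analysed here, nor were 5 of 18 oocyte, 1 of 12 theca, 2 of 8 endothelial and 5 of 6 immune markers.

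No member passed the adjusted p of 0.05 (0 of 36) in the authors' test, for which the processing notes name DESeq2, against 0.529% of all tested genes. The lowest adjusted p of a member was 0.333. At an unadjusted p under 0.05 there were 4 members, Anln, Ncaph, Mki67 and Cdk1, against 7.02% of all tested genes. With p taken from a t distribution of 10 degrees of freedom there were 3, without Cdk1. The 4 were all lower in vitrified follicles, or 11.1% of the members against 3.79% of all tested genes, and 0 were higher, against 3.24%. The deposited log2 fold change was below 0 for 35 of the 36 members, or 97.2% (34 of 36 when centred on the median of tested genes, where Bub3 changed sign), and below 0 for 53.2% of all tested genes. The median over the members was -0.33, a value 1.25-fold lower in vitrified follicles, with quartiles of -0.49 and -0.14. Over all tested genes the median was -0.02 (quartiles -0.22 and 0.17). In tested genes whose totals lay in the members' range, from 84.3 to 1962, the median was also -0.02 and 53.0% were lower. All members were measured in the same 12 follicles and most are known to be transcribed in the same phase of the cell cycle, so 35 lower values are not 35 separate observations. In a whole follicle, fewer dividing cells and less of these RNAs per cell cannot be told apart.

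No member differed by 2-fold (0 of 36), 9 were lower by at least 1.4-fold and 6 were lower by less than 0.1 on the log2 scale. The derived standard error had a median of 0.30 on the log2 scale. The interval lay wholly within 2-fold for 20 members, or 55.6%, against 69.1% of all tested genes. A fall of 2-fold lay within the interval of the other 16, while a rise of 2-fold lay within the interval of none (0). For 32 members the interval also lay below a rise of 1.5-fold. The members' own median of -0.33 lay inside the interval of each of the 36. That median comes from the same values and the intervals are wide, so the overlap cannot tell whether the members share a common shift. Of the 36, 15 were among the 10% of tested genes with the lowest log2 fold changes, and 34 were below the median of tested genes. The 18 members of lower total had a median of -0.33 and the 18 of higher total one of -0.32, and across the 36 genes the Spearman rank correlation of log2 fold change with total was 0.05, given as a description because the genes share their libraries.

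**Figure D1:**
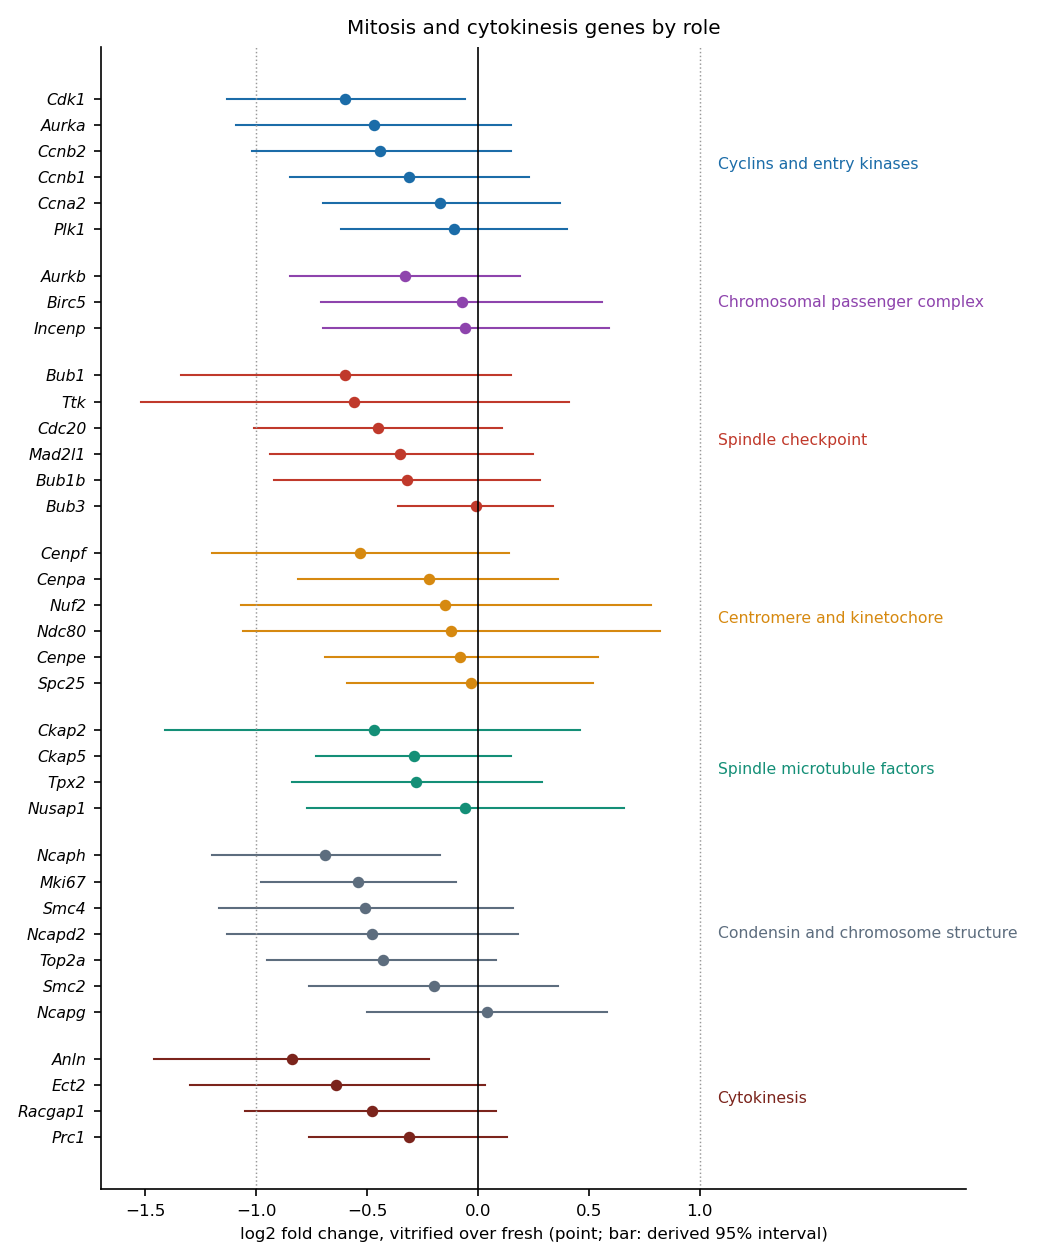
Deposited log2 fold change of vitrified over fresh follicles (x axis) for the 36 members, grouped by role, with bars for the 95% interval derived from each p-value and dotted lines at a 2-fold change. Points run from -0.84 for Anln to 0.04 for Ncapg, 35 lie left of 0 (34 when centred on the median of tested genes), and only the bars of Anln, Ncaph, Mki67 and Cdk1 stop short of 0. The bars assume a normal test, and with the t distribution Cdk1 was not among these.

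The cyclins and the kinases of mitotic entry were lower in value in 6 of 6 cases, with a median of -0.37. Cdk1, the kinase that cyclins A and B activate, lies on chromosome 10 from 69335146 to 69352938 in GRCm38 and had a total of 733 in the authors' deposited table. Its deposited log2 fold change was -0.60 (interval -1.13 to -0.06), with p = 0.0278 (adjusted 0.591) in the authors' deposited table. With a t distribution of 10 degrees of freedom its p was 0.0524. Of its partners, Ccnb2 showed a log2 fold change of -0.44 (interval -1.02 to 0.15), Ccnb1 one of -0.31 (interval -0.85 to 0.23) and Ccna2 one of -0.17 (interval -0.70 to 0.37) in the authors' deposited table. Cdk1 stood lowest of these and the cyclin A gene nearest to 0, but their intervals overlap. Cyclin B1 carries a limit of its own, since 39.3% of its 50-base transcript windows also occur in other genes, foremost Ccnb1-ps and Gm12856, so reads may have been shared with these copies. Aurka, the kinase of spindle poles, showed a log2 fold change of -0.47 (interval -1.09 to 0.15) at a total of 207 in the authors' deposited table. Plk1, a kinase that acts from entry to cytokinesis, stood at -0.11 (interval -0.62 to 0.40) at a total of 423 in the authors' deposited table. Of the Plk1 windows, 7.41% also occur in Plk-ps1. Per kilobase of longest coding transcript, the totals were 469 for Ccna2, 342 for Ccnb2, 305 for Ccnb1, 192 for Plk1, 168 for Cdk1 and 109 for Aurka. The cyclins stood highest by this measure, which depends on the transcript length used. By total, Cdk1 at 733 stood above Ccnb2 at 524.

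The chromosomal passenger complex, which corrects faulty attachments at centromeres and moves to the midzone before division, had the median closest to 0 of the roles, -0.07. Its kinase gene Aurkb showed a log2 fold change of -0.33 (interval -0.85 to 0.19) in the authors' deposited table. Birc5, the survivin subunit, showed a log2 fold change of -0.07 (interval -0.71 to 0.56), while Incenp, the scaffold subunit gene, had one of -0.06 (interval -0.70 to 0.59), in the authors' deposited table. All 3 intervals lay within 2-fold.

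Genes of the spindle checkpoint were lower in value in 6 of 6 cases (5 of 6 when centred on the median of tested genes, with Bub3 at 0.01), with a median of -0.40, and none passed an unadjusted p of 0.05 (0). Bub1, a kinase that loads the checkpoint onto kinetochores, showed a log2 fold change of -0.60 (interval -1.34 to 0.15) at a total of 212 in the authors' deposited table. Ttk, the kinase MPS1 at the head of the checkpoint, stood at -0.56 (interval -1.52 to 0.41) in the authors' deposited table, where its total of 84.3 was the lowest of all members. Cdc20, the activator of the anaphase-promoting complex that the checkpoint holds in check, showed a log2 fold change of -0.45 (interval -1.01 to 0.11) at a total of 663 in the authors' deposited table. Windows shared with other genes made up 15.1% of the Cdc20 sequence. Mad2l1, a subunit of the inhibitory checkpoint complex, stood at -0.35 (interval -0.94 to 0.25) in the authors' deposited table. Bub1b, another subunit of that complex, stood at -0.32 (interval -0.92 to 0.28) in the authors' deposited table. Bub3, which binds both Bub1 and Bub1b, had a log2 fold change of -0.0086 with the narrowest interval of all members, -0.36 to 0.34, at a total of 1237 in the authors' deposited table. A change of Bub3 by 1.5-fold in either direction lies outside that interval. The total per kilobase was 362 for Bub3, against 71.1 for Bub1b and 61.9 for Bub1. Across the 36 members the Spearman rank correlation of log2 fold change with total per kilobase was 0.19, given as a description.

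At the centromere and kinetochore all 6 values were lower, with a median of -0.13. Cenpf, a large protein of the outer kinetochore, showed a log2 fold change of -0.53 (interval -1.20 to 0.14) in the authors' deposited table. Cenpa, the histone H3 variant that marks centromeres, stood at -0.22 (interval -0.81 to 0.36), and Cenpe, the kinetochore motor, at -0.08 (interval -0.69 to 0.54), in the authors' deposited table. The NDC80 complex, the microtubule-binding rod of the kinetochore, was represented by Nuf2 at -0.15 (interval -1.07 to 0.78), Ndc80 at -0.12 (interval -1.06 to 0.82) and Spc25 at -0.03 (interval -0.59 to 0.52) in the authors' deposited table. Totals of 107 for Nuf2 and 88.5 for Ndc80 in the authors' deposited table stand beside intervals that hold both 0 and a fall of 2-fold. Spc25, at a total of 364, had an interval within 2-fold.

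Factors of spindle microtubules were lower in 4 of 4 cases, with a median of -0.28. Ckap2 showed a log2 fold change of -0.47 (interval -1.41 to 0.46) at a total of 123 in the authors' deposited table. Ckap5, a microtubule polymerase, stood at -0.29 (interval -0.73 to 0.15), Tpx2, which activates the Aurora A kinase on the spindle, at -0.28 (interval -0.84 to 0.29), and Nusap1, which bundles microtubules near chromosomes, at -0.06 (interval -0.77 to 0.66) in the authors' deposited table. Exons of Nusap1 overlap the neighbouring gene Oip5 on the other strand, and exons of 5 further members, Ccna2, Plk1, Cdc20, Prc1 and Ncapg, overlap a gene on the opposite strand. The sources used here do not say whether counting used strand, so reads in those overlaps are uncertain.

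Condensin and the other genes of chromosome structure had the second lowest median of the roles, -0.48, with 6 of 7 values lower. Ncaph, the kleisin subunit that closes the ring of condensin I, lies on chromosome 2 from 127103809 to 127133954 and had a total of 394 in the authors' deposited table. Its log2 fold change was -0.69 (interval -1.20 to -0.17), with p = 0.00857 (adjusted 0.35) in the authors' deposited table. The ATPase subunit gene Smc4 showed a log2 fold change of -0.51 (interval -1.17 to 0.16), while its partner Smc2 had one of -0.20 (interval -0.76 to 0.36) in the authors' deposited table. Of the HEAT-repeat subunits, Ncapd2 stood at -0.48 (interval -1.13 to 0.18) and Ncapg at 0.04 (interval -0.50 to 0.58) in the authors' deposited table. Ncapg, on chromosome 5 from 45669919 to 45700546, was thus the only member with a higher value in vitrified follicles, and the subunits of this complex ran from nearly the lowest to the highest value of the whole set. The difference between Ncaph and Ncapg was not tested, because the table gives no covariance between genes, and their intervals overlap. Part of the exon sequence of Ncapg, 944 of 7066 bases, lies opposite exons of Lcorl.

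Mki67, the antigen used to mark cycling cells, which coats mitotic chromosomes, lies on chromosome 7 from 135689784 to 135716361. It showed a log2 fold change of -0.54 (interval -0.98 to -0.10), with p = 0.0168 (adjusted 0.488), at a total of 657 in the authors' deposited table. Top2a, the topoisomerase that untangles sister chromatids, had the highest total of the members, 1962, and a log2 fold change of -0.43 (interval -0.95 to 0.08) in the authors' deposited table. Both intervals lay within 2-fold.

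Cytokinesis genes had the lowest median of the roles, -0.56, with 4 of 4 values lower. Anln, the anillin that links actin, septins and RhoA in the contractile ring, lies on chromosome 9 from 22332012 to 22389188 and had a total of 227 in the authors' deposited table. Its log2 fold change of -0.84 (interval -1.46 to -0.22) was the lowest of all members and the 191st lowest of the 10963 tested genes, with p = 0.00758 (adjusted 0.333) in the authors' deposited table. Ect2, the exchange factor that switches RhoA on at the midzone, showed a log2 fold change of -0.64 (interval -1.30 to 0.03) at a total of 138 in the authors' deposited table. Racgap1, the centralspindlin subunit that recruits ECT2, stood at -0.48 (interval -1.05 to 0.08) in the authors' deposited table. Prc1, which bundles antiparallel microtubules of the midzone, showed a log2 fold change of -0.31 (interval -0.76 to 0.13) at a total of 1388 in the authors' deposited table. Anillin stood furthest from 0 and the midzone bundler nearest to it, but each of these intervals overlaps the others and the order was not tested.

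**Figure D2:**
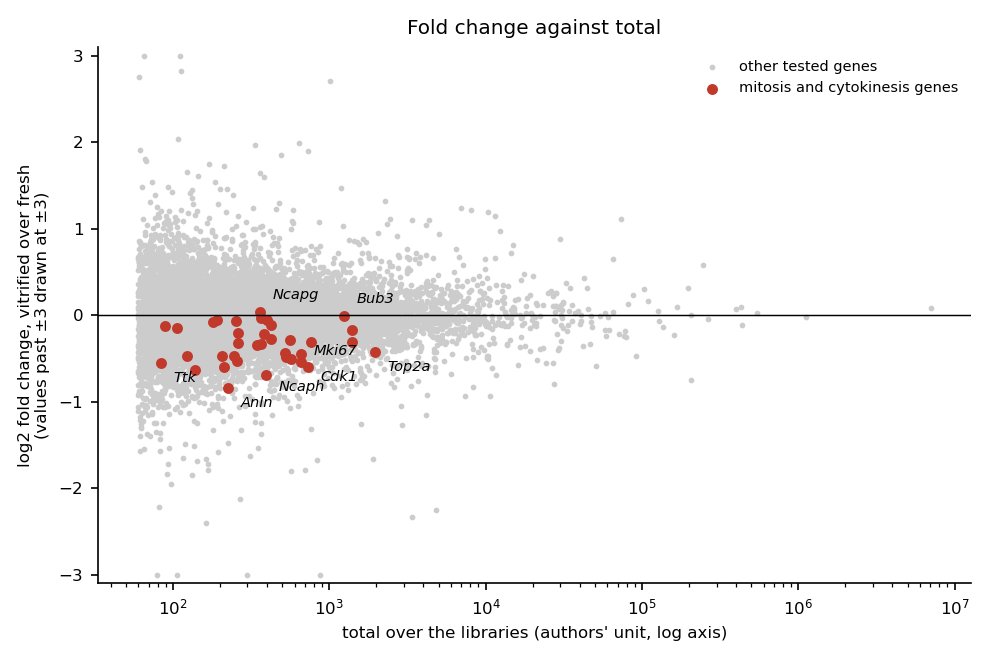
Deposited log2 fold change of vitrified over fresh follicles (y axis) against the total over the libraries (x axis, log scale) for all tested genes in grey and the 36 members in red. The members span totals from 84.3 to 1962, where most genes lie, and form a band between -0.84 and 0.04 within the grey cloud.

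Promoters of genes expressed in G2 and mitosis are known for a cell cycle genes homology region (CHR), bound by the DREAM and MuvB complexes, beside CCAAT boxes, bound by NF-Y. Windows from 250 bases before to 50 bases after each start were taken from RefSeq (GRCm38.p6) and searched on both strands for the CHR letters TTTGAA, the CHR variant TTCGAA and the CCAAT box CCAAT. Of the 36 members 31 had a window, and the entries not found were Aurkb, Ccna2, Incenp, Smc4 and Tpx2. A CHR of either spelling occurred in 24 of the 31, or 77.4%, against 15.8% of the 8052 tested genes with a window and 21.7% of all 27025 genes with one. A CCAAT box occurred in 24 members, also 77.4%, against 43.9% of tested genes, and both motifs together in 22, or 71.0%, against 6.81%. No match of different motifs overlapped another (0). A CHR began within 50 bases of the start in 21 members. The promoter stretches below are shown because they belong to the members of lowest p, to Top2a, the member with the highest total, to Cdc20, the effector of the checkpoint, and to Ncapg, with the only higher value. They run 5′ to 3′ on the gene's own strand, ending at the base before the start, and capitals mark the CHR of either spelling and the CCAAT box, in either orientation (TTCAAA and ATTGG on the opposite strand).
Mki67: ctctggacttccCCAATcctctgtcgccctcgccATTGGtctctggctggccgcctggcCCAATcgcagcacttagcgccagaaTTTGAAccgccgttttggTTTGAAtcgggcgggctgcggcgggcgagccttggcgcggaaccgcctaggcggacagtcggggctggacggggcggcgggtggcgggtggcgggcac
Cdk1: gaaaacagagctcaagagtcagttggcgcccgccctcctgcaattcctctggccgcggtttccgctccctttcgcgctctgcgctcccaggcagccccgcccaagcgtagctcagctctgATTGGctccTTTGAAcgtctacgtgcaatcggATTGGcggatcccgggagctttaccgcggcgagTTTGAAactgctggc
Ncaph: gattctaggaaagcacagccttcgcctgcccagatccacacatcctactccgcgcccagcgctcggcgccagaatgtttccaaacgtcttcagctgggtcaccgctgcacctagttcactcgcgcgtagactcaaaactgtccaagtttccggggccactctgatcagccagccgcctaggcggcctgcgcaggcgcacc
Cdc20: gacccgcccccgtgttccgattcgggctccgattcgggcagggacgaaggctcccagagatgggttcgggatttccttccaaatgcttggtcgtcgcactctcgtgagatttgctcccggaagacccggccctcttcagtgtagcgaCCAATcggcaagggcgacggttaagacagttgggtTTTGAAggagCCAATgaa
Top2a: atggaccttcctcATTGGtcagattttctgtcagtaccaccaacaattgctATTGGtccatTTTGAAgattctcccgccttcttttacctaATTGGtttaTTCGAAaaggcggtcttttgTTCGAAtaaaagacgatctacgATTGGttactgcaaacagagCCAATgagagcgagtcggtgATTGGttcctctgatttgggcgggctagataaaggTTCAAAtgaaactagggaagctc
Ncapg: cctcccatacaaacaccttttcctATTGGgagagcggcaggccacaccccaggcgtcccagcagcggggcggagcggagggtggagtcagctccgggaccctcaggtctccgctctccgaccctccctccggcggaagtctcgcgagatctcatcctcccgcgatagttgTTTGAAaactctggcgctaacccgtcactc
These are chr7:135716380-135716579 (minus strand) for Mki67, chr10:69352913-69353112 (minus) for Cdk1, chr2:127133955-127134154 (minus) for Ncaph, chr4:118437344-118437543 (minus) for Cdc20, chr11:99024190-99024429 (minus) for Top2a and chr5:45669725-45669924 (plus) for Ncapg. Mki67 had 2 CHR and 3 CCAAT matches in its stretch, Cdk1 2 and 2, Cdc20 1 and 2, Top2a 4 and 6, and Ncapg 1 and 1. Ncaph, whose log2 fold change was the second lowest, had no match in its whole window, as had Birc5, Mad2l1, Nuf2 and Nusap1. In Anln the CHR matches lay after the start, from base 22 onwards, as a pair in opposite orientation separated by a single base, at chr9:22389167-22389192 (minus strand).
Anln: gctgaaaTTCAAAtTTTGAAcggccg

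**Figure D3:**
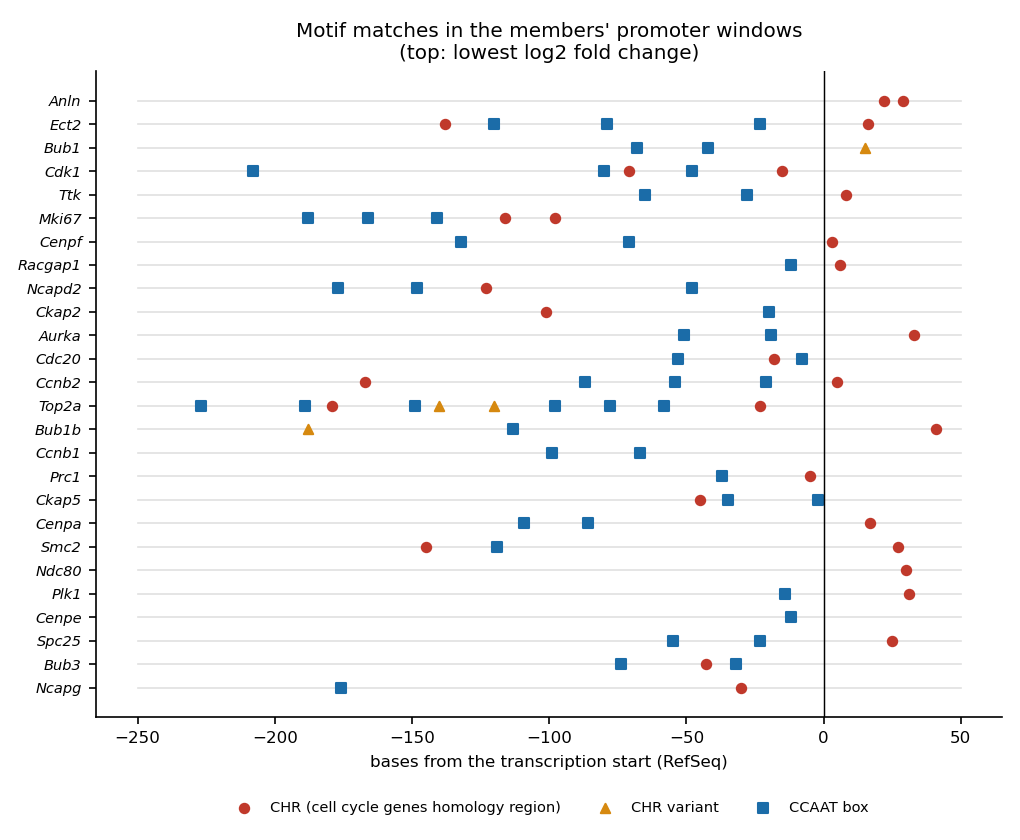
Positions of CHR (circles), CHR variant (triangles) and CCAAT box (squares) matches, in bases from the RefSeq start, for the 26 members with a match, ordered from the lowest log2 fold change (top) to the highest. The CCAAT boxes drawn begin before the start, and 21 members have a CHR within 50 bases of it. Members near the top and near the bottom both carry the motifs. For the 3 members with a second start, only the first listed start is drawn. A CCAAT box of Ect2 at base 2 from its other start is therefore not shown.

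Fold changes were then described by promoter content. Members with a CHR of either spelling had a median log2 fold change of -0.44 (24 genes, 23 lower) and members with a window but no CHR one of -0.15 (7 genes, 7 lower) in the authors' deposited table. Among other mitosis genes, which are not members, those with a CHR had a median of -0.32, with 33 of 36 lower, and those without it a median of -0.06, with 30 of 55 lower. Over all tested genes outside the members the same split gave -0.03 for 1252 genes with a CHR, 55.0% of them lower, and -0.02 for 6769 without it, 52.5% lower. The gap seen among genes of mitosis was thus much narrower over the whole table. These counts are descriptions, the motifs were chosen after the members' values were seen, and the differences were not tested.

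The other mitosis genes came from a list of 127 symbols, of which 115 were tested. None passed the adjusted p over all genes (0), while 8 had an unadjusted p under 0.05. These were 6.96%, a share near the 7.02% of all tested genes. Of the 8, 7 were lower and 1 higher, while over all tested genes 3.79% were lower at that threshold and 3.24% higher. The 115 genes had a median log2 fold change of -0.18 and 81 were lower, or 70.4% against 53.2% of all tested genes, in the authors' deposited table. Hmmr, a spindle pole factor, showed a log2 fold change of -0.90 (interval -1.55 to -0.24, p = 0.00713, adjusted p = 0.332) in the authors' deposited table. Cdc14a, a phosphatase, stood at -0.88, Espl1, the separase that cleaves cohesin, at -0.84, Knl1, the kinetochore platform of Bub1, at -0.75 and Cks1b, a CDK-binding subunit, at -0.66 in the authors' deposited table, each with an unadjusted p under 0.05. Condensin II and cohesin genes had a median of -0.21, with 11 of 13 lower, and spindle and centrosome genes one of -0.22, with 21 of 28 lower. Genes listed for the anaphase-promoting complex, whose core is present through the whole cell cycle, had a median of 0.02 with 6 of 15 lower. Among those lower were Ube2c at -0.13 and Ube2s at -0.63, which act with the complex and are not core subunits. Anapc7, a subunit gene of the complex, showed a log2 fold change of 0.62 (interval 0.28 to 0.95), with p = 3.0e-04 (adjusted 0.0536) in the authors' deposited table. This was the lowest p on the list and in the upward direction. The remaining cytokinesis genes, among them RhoA, its ROCK kinases and septins, had a median of -0.04 with 7 of 12 lower, against -0.56 for the 4 cytokinesis members.

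Regulators of the mitotic programme did not share a direction. Of 24 genes, 13 were lower and 11 higher, with a median of -0.08. The lower share was 54.2%, near the 53.2% of all tested genes. None passed either threshold (0 by adjusted p, 0 by unadjusted p under 0.05), against 0.529% and 7.02% of all tested genes. Foxm1, which activates genes of G2 and mitosis, showed a log2 fold change of -0.57 (interval -1.21 to 0.07) in the authors' deposited table. Subunits of the complexes above differed in sign. The NF-Y gene Nfya stood at 0.61 (interval -0.06 to 1.28), the MuvB gene Lin52 at 0.82 (interval -0.10 to 1.74) and the DREAM gene E2f4 at 0.43 (interval -0.15 to 1.01) in the authors' deposited table. Named here for their opposite sign, Nfyc of NF-Y stood at -0.19 (interval -0.50 to 0.13), Lin37 of MuvB at -0.48 (interval -1.31 to 0.36) and Rbl2 of DREAM at -0.44 (interval -1.13 to 0.24). Lin54, the MuvB subunit that contacts the CHR, named here for that role, stood at -0.46 (interval -1.41 to 0.49) at a total of 85.1 in the authors' deposited table. All of these intervals hold 0.

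Markers of the follicle's cell types were set beside the members. Granulosa markers had a median log2 fold change of -0.02 (8 of 13 lower, range -0.82 to 0.67) in the authors' deposited table. At an unadjusted p under 0.05 there were 3, or 23.1% against 7.02% of all tested genes, with 2 lower and 1 higher. These were the activin antagonist Fst at -0.82 (interval -1.48 to -0.17), Inhbb at -0.57 (interval -1.06 to -0.08) and the hormone receptor gene Fshr at 0.67 (interval 0.14 to 1.20) in the authors' deposited table. None of them passed the adjusted p. Theca markers had a median of 0.08 with 5 of 11 lower, but they ran from -0.67 to 2.70. Of them 4, or 36.4%, had an unadjusted p under 0.05, against 7.02% of all tested genes. Insl3, a peptide hormone of theca cells, stood at 2.70 (interval 1.06 to 4.34, p = 0.00123, adjusted p = 0.144) in the authors' deposited table, though 60.9% of its windows also occur in other genes. Star, which carries cholesterol into mitochondria, stood at 1.60 (interval 0.66 to 2.53, p = 8.2e-04, adjusted p = 0.111) in the authors' deposited table. Aldh1a1, a retinaldehyde dehydrogenase, stood at 1.19 (interval 0.50 to 1.88, p = 6.8e-04, adjusted p = 0.0976) in the authors' deposited table. Fbln1, a matrix protein, lay on the other side of 0 at -0.50 (interval -0.86 to -0.13, p = 0.00815, adjusted p = 0.343) in the authors' deposited table.

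Of the oocyte markers 10 had an adjusted p, and 1 of these was lower, with a median of 0.55. Another 3 had no adjusted p, and among them Dazl, a germ cell RNA-binding protein, had the lowest p of the oocyte markers and a value in the other direction, -2.14 (interval -3.56 to -0.73, p = 0.003), at a total of 44.3 in the authors' deposited table. Endothelial markers had a median of -1.25 with 5 of 5 lower, and the immune marker Lyz2 stood at -1.05 (interval -2.05 to -0.05, p = 0.0396, adjusted p = 0.669) in the authors' deposited table. No marker passed the adjusted p (0). The median derived error on the log2 scale was 0.60 for oocyte, 0.65 for theca and 1.10 for endothelial markers, against 0.30 for the members. The part of these cell types in the members' values was not tested.

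**Figure D4:**
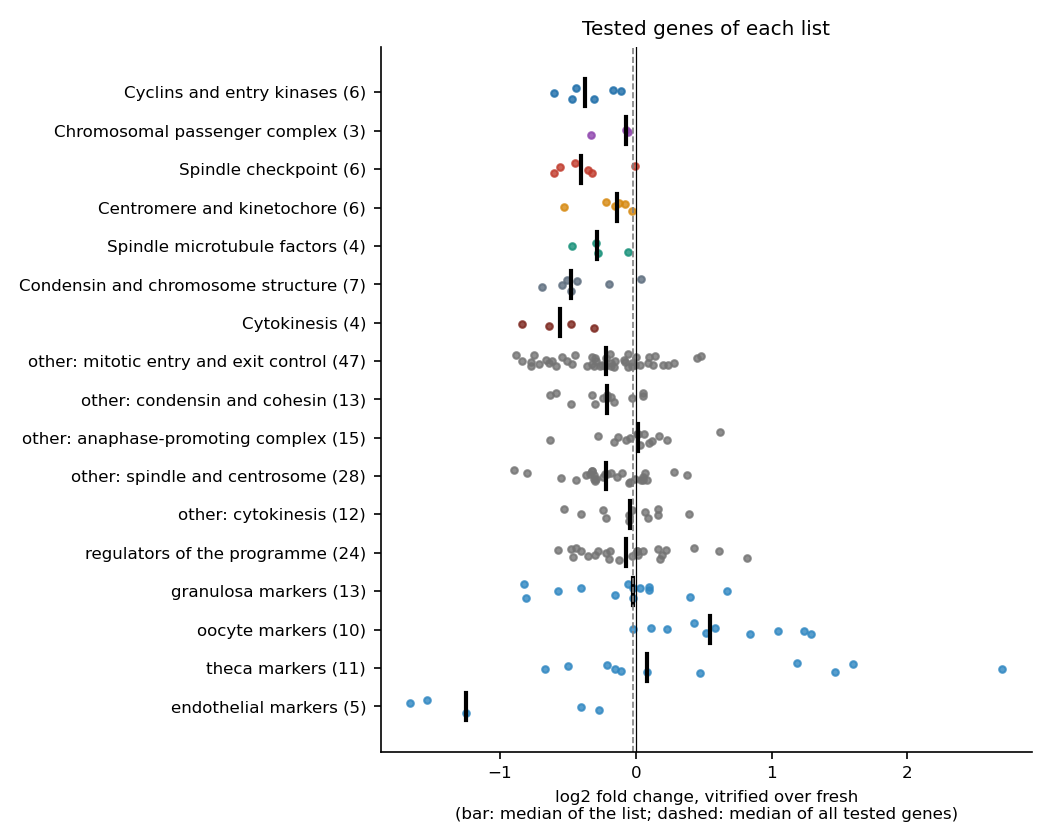
Deposited log2 fold change of vitrified over fresh follicles (x axis) for each tested gene of the 7 member roles (coloured), the other mitosis genes and regulators (grey) and the cell type markers (blue), with the number of genes in brackets and a bar at each median. Medians of the 7 roles run from -0.56 to -0.07, while granulosa markers centre on -0.02, oocyte markers on 0.55 and endothelial markers on -1.25.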

How the data were processed

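RNA sequencing of 12 single follicles was used through the authors' comparison of vitrified with fresh follicles. The build mm10 and the tools Bowtie2, HISAT2, Partek and DESeq2 are named in the submitters' processing notes. The sources used here do not give the counting rule, its use of strand or the annotation. Per the file headers, the authors deposited the log2 fold change per gene, the same as a signed fold, an unadjusted p-value, its step-up adjusted form and a total count pooled over libraries. Only 0.237% of the totals were whole within 0.001, so this deposited signal was not treated as raw counts. No depth per follicle is given. The signed fold column (a score below and above 0) and the log2 column deposited by the authors differed in 0 genes. The adjusted p deposited by the authors is missing for 843 genes, each with a total under 59.45.

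From these the standard error was computed as log2 fold change over the normal quantile of p, and the 95% interval from it, which assumes a two-sided normal test. These steps, in Python 3.11.15 with scipy 1.17.1, were tested on simulated data. Coordinates, exon overlaps and windows of 50 bases, taken every 25 bases and sought in other genes, came from GENCODE mouse release 21 (GRCm38, the assembly called mm10), and promoters from RefSeq (GRCm38.p6). All 36 members matched by symbol. The members, lists and the naming rule were chosen with earlier results of these data known. Every member is named, as are list genes with an unadjusted p under 0.01 and up to 4 more of lowest p per list. Lists are described by counts and medians, with no test. Groups came from the sample titles.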

Additional observations from a re-analysis of the deposited data

How the results depend on the processing

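Under each alternative the members' median log2 fold change stayed between -0.39 and -0.30. It was -0.33 at a total of at least 120 (33 members) and -0.30 centred on the median of tested genes. Weighted by the inverse squared error, the mean was -0.32. Without a filter on totals the median was -0.33, but all 36 members had been tested with the filter, so this value could not differ. The same held without members sharing at least 50% of windows, since none did (0). Leaving out each role in turn, an alternative chosen after seeing the data, gave -0.39 to -0.31. The count of lower members was 32 of 33 at a total of at least 120 and 34 of 36 after centring, which turned Bub3 to 0.01. Without the filter the count was 35 of 36, which could not differ because the members were the same. No member was called (0) at an adjusted p of 0.10, without the filter, at a total of at least 120 or with a t distribution of 10 degrees of freedom, whose heavier tails left 0 of all genes called, against 58. At an unadjusted p under 0.05 the count was 4, and with the t distribution 3, without Cdk1. No paired analysis was possible because the table holds no value per follicle, and for the same reason leaving out a follicle and other normalizations were not run. Intervals of 16 members hold a fall of 2-fold, among them Cdk1 at a total of 733 and Ttk at 84.3. The depth per follicle is not given, so its part in the width of the intervals cannot be told apart.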
